A study of Mus musculus with 16 samples.

Results

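The genes described are those of the mouse major histocompatibility complex (MHC) and of the antigen presentation machinery, measured by RNA-seq in pancreatic islets of the founder strains of the Diversity Outbred mice. They were chosen by name. All genes whose name starts with H2- were taken, together with B2m, Tap1, Tap2, Tapbp, Psmb8, Psmb9, Psmb10, Nlrc5, Ciita and Cd74. These gave 55 of the 54146 genes in the tables, 50 of them on chromosome 17, and 32 of the 55 were among the 15204 protein-coding genes that passed filters rebuilt here from the methods of the study, which need not give the gene set of the study. The other 23 were of pseudogene biotype or had too few reads, and 7 of them could be fitted with a filter that admits all biotypes. H2-L had no row.

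The 16 samples were whole islets of the inbred strains 129S1_SvImJ (129), A_J (AJ), C57BL/6J (B6), CAST_EiJ (CAST), NOD_ShiLtJ (NOD), NZO_HlLtJ (NZO), PWK_PhJ (PWK) and WSB_EiJ (WSB), with females and males of each strain as separate samples. All mice were 26 weeks old and all were fed the high-fat diet, so no group without the diet exists. There were 91 libraries, 10 of 129, 14 of AJ, 18 of B6, 14 of CAST, 10 of NOD, 4 of NZO, 5 of PWK and 16 of WSB. The labels do not say whether each library is 1 mouse, so p-values measure the spread between libraries.

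The libraries held between 16928552 and 35196145 expected counts, so that 3 counts correspond to 0.0852 to 0.177 CPM (counts scaled to a common library total). The sex-linked genes were opposite to the labelled sex in 12 libraries, of which 6 were of 129, 4 of WSB and 2 of NOD, and all were kept under their labels. The endocrine genes used to check the tissue (Ins1, Ins2, Gcg, Sst, Ppy, Iapp, Chga and Pdx1) summed to strain means of 338862 to 563999 TPM (expected counts scaled for transcript length and to the same total in each library). The summed acinar genes ranged from a mean of 6752 TPM in AJ to 112186 TPM in NOD. Library numbers ran from 66 to 100 in 129, NOD, NZO and PWK and from 1 to 65 in the other strains, so strain and number range cannot be told apart between these sets. TPM is relative to everything else in the library. On log2(TPM + 1) the median of all genes stood 0.26 above B6 in 129, 0.20 in PWK, 0.16 in AJ and 0.11 in NZO, whereas with upper-quartile normalization it lay within 0.033 of B6 in every strain. Levels are therefore given in TPM, and fold changes and tests are from the normalized counts.

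MHC class I molecules are made of a polymorphic heavy chain and B2m, the light chain common to all of them. They carry peptides cut by the proteasome, whose inducible subunits are Psmb8, Psmb9 and Psmb10. The peptides are pumped into the endoplasmic reticulum by Tap1 and Tap2 and loaded with the help of Tapbp, and Nlrc5 is the transactivator of these genes. Nearly all cells show class I molecules to cytotoxic T cells, and interferon raises them. Class II molecules are made of an alpha and a beta chain, which are H2-Aa with H2-Ab1 for the A molecule and H2-Ea with H2-Eb1 for the E molecule. They are shown mainly by B cells, dendritic cells and macrophages. Cd74 is the invariant chain that holds their groove until the exchange factor made of H2-DMa with H2-DMb1 or H2-DMb2 loads a peptide, which H2-Oa and H2-Ob restrain, and Ciita is the class II transactivator.

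The strains differ in MHC haplotype. The reference genome is that of B6, and 129 carries a closely related b haplotype. Mice of the b haplotype and NOD mice are known to make no E molecule because of a deletion in the gene of the E alpha chain, which the annotation lists as H2-Ea-ps with the biotype polymorphic pseudogene. Reads were assigned to B6 transcripts for all strains, so a read of another haplotype with enough mismatches can be lost or given to a related gene. For every gene that was lower in a strain other than 129 and B6, less RNA and lost reads cannot be told apart from the tables, and the sequence of the strains was not analysed here. In these bulk samples, fewer cells of a type and less RNA per cell cannot be told apart either.

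The class I heavy chain genes are so alike that reads can pass between them. The sequences below are the first 60 bases of the coding exon 2 of 6 of them, which codes for the start of the peptide-binding part of the protein, and they are shown because this likeness bounds what can be said of each gene. They come from the B6 reference (GRCm38), at chr17:33999944-34000003 on the minus strand for H2-K1, chr17:35263379-35263438 for H2-D1, chr17:35342600-35342659 for H2-Q2, chr17:35425108-35425167 for H2-Q6 and chr17:35439452-35439511 for H2-Q7, all on the plus strand, and chr17:36042069-36042128 on the minus strand for H2-T22. Capitals mark bases that differ from H2-K1 at the same position.
H2-K1: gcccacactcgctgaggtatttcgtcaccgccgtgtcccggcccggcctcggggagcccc
H2-D1: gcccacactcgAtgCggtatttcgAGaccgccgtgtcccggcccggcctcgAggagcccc
H2-Q2: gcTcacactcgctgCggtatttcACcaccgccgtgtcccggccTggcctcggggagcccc
H2-Q6: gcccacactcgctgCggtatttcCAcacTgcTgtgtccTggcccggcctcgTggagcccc
H2-Q7: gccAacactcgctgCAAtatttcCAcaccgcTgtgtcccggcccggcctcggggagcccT
H2-T22: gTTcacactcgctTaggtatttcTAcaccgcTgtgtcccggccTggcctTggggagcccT

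In these windows H2-D1 and H2-Q2 each differed from H2-K1 at 5 positions, H2-Q6 at 7, H2-Q7 at 8 and H2-T22 at 9. Over the whole coding sequence H2-D1 was 88.3% identical to H2-K1, H2-Q2 82%, H2-Q6 78% and H2-T22 63.1%, and H2-Q6 and H2-Q7 were 93.1% identical to each other. The share of 100-base windows of a gene's transcripts that also occur in another gene was 14.0% for H2-Q5, 11.98% for H2-Q7, 10.8% for H2-Q6, 8.86% for H2-T22, 8.05% for H2-Q1, 5.09% for H2-Q2, 3.59% for H2-D1 and 0.957% for H2-K1. H2-DMb1 and H2-DMb2 shared 11.3% and 10.3% of their windows with each other, and H2-Ke6, which is the metabolic enzyme gene Hsd17b8 and has no part in antigen presentation, shared 61.6% with an overlapping readthrough gene. No window was shared for B2m, Cd74, H2-Aa, H2-Ab1, H2-Eb1, H2-Ea-ps, H2-DMa, H2-Oa, H2-Ob, Nlrc5 or Ciita. Values of the H2-Q and H2-T genes with shared windows and of both DMb genes are thus uncertain in how reads were split. No such window was found for H2-Q3, H2-T3, H2-T24 or the chains of the A and E molecules. Expected counts that were not whole, which arise when reads are split between genes, still occurred in 7.69% of libraries for both H2-Ab1 and H2-Eb1. For H2-T24 they occurred in 72.5% of libraries.

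**Figure D1:**
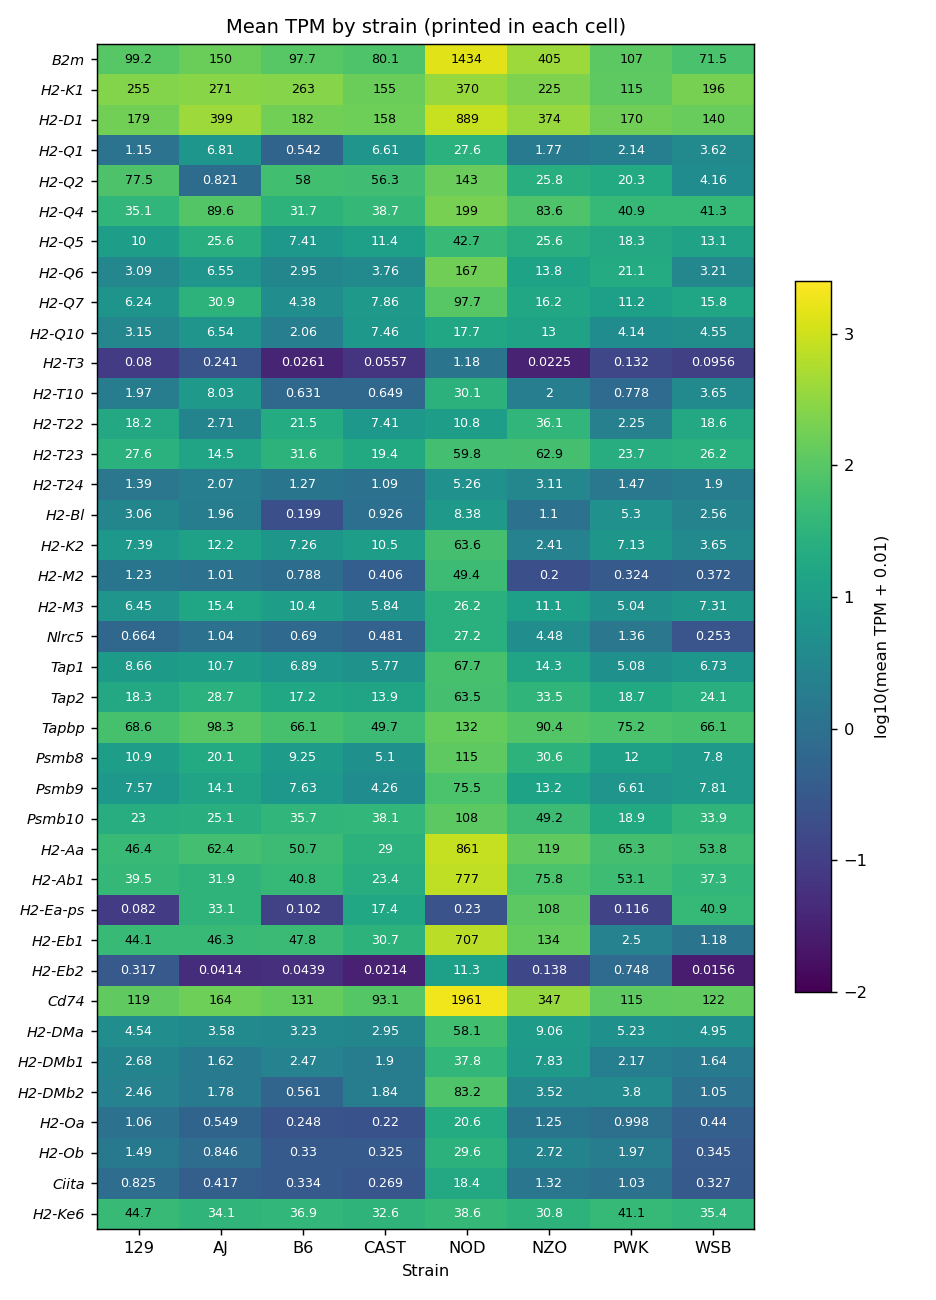
Mean TPM of the 39 genes that reached a mean of at least 1 TPM in at least 1 strain, one row per gene and one column per strain. Colour stands for log10(mean TPM + 0.01) and the mean is printed in each cell. The NOD column is the brightest in most rows, H2-Ea-ps is dark in 129, B6, NOD and PWK, H2-Eb1 is dark in PWK and WSB, and H2-Q2 is dark in AJ.

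The E molecule gave the sharpest division between strains. H2-Ea-ps, the E alpha chain (chr17:34341959-34344645, minus strand), was near 0 in 129, B6, NOD and PWK and abundant in AJ, CAST, NZO and WSB. In B6 its level was 0 to 0.41 TPM with a median of 0.07 TPM, from 25 reads in all 18 libraries together. In 129 it was 0 to 0.18 TPM with a median of 0.08 TPM, and in NOD 0 to 0.68 TPM with a median of 0.19 TPM. In the libraries of PWK it was 0.16, 0, 0.09, 0.08 and 0.25 TPM, from 7 reads in all.

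In AJ, by contrast, H2-Ea-ps ranged from 24.51 to 48.34 TPM with a median of 32.09 TPM. In CAST it ranged from 5.66 to 30.3 TPM with a median of 16.45 TPM, and in WSB from 26.34 to 61.12 TPM with a median of 41.85 TPM. The libraries of NZO had 102.77, 64.62, 51.94 and 212.74 TPM. Every library of AJ, CAST, NZO and WSB thus lay above every library of the other 4 strains. Against B6 the fitted log2 fold change was 8.07 in AJ (SE 0.27, adjusted p = 1.87e-44), 7.46 in CAST (SE 0.27, adjusted p = 6.76e-42), 9.86 in NZO (SE 0.29, adjusted p = 1.20e-47) and 8.6 in WSB (SE 0.27, adjusted p = 5.38e-47), by edgeR's quasi-likelihood test over genes of all biotypes. With so few reads in B6 the size of these folds rests on few counts. The differences of 129 (-0.49, adjusted p = 0.567), NOD (0.91, adjusted p = 0.111) and PWK (0.02, adjusted p = 0.988) from B6 did not pass the test.

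H2-Eb1, the E beta chain (chr17:34305867-34316674, plus strand), had another division. It was present in 129, B6 and NOD, where the alpha chain was near 0, and was low in PWK and WSB. In B6 it ranged from 25.08 to 67.13 TPM with a median of 49.3 TPM. In WSB it ranged from 0.61 to 1.76 TPM with a median of 1.18 TPM, and in the libraries of PWK it was 2.48, 1.4, 4.57, 0.58 and 3.49 TPM. No library of PWK or WSB reached the lowest library of any other strain, which was 14.68 TPM in CAST. The log2 fold change against B6 was -4.52 in PWK (SE 0.43, adjusted p = 1.16e-15) and -5.33 in WSB (SE 0.27, adjusted p = 1.30e-31), and all alternative settings kept both calls. The low values were backed by 269.02 reads in PWK and 514 in WSB, against 22391 in B6.

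The partner genes of the A molecule in the same libraries did not share this pattern. H2-Aa was 64.32, 35.39, 135.5, 23.52 and 67.8 TPM in PWK and 39.98 to 73.24 TPM with a median of 50.67 TPM in WSB, against 26.09 to 71.77 TPM with a median of 52.015 TPM in B6. Its log2 fold change against B6 was 0.10 (SE 0.30) in PWK and 0.08 (SE 0.20) in WSB, and neither passed the test (adjusted p = 0.812 and 0.763). Within each library, H2-Eb1 stood at 118% ± 7.83 (SD, n = 18) of H2-Ab1 in B6, 4.58% ± 1.16 (SD, n = 5) in PWK and 3.26% ± 0.975 (SD, n = 16) in WSB. PWK was the strain in which both E chains were near or under these low levels, whereas WSB had the alpha chain with a low level of the beta chain, from 17 to 50 reads per library, and 129, B6 and NOD had the beta chain with the alpha chain near 0. H2-Ea-ps stood at 106% ± 11 (SD, n = 14) of H2-Ab1 in AJ, 78.05% ± 33.9 (SD, n = 14) in CAST, 150.1% ± 14.8 (SD, n = 4) in NZO and 111% ± 14.4 (SD, n = 16) in WSB, and at no more than 1.00% in any library of the other strains. Among the libraries of AJ, CAST and NZO the lowest share of either E chain was 44.1% of H2-Ab1, for H2-Ea-ps in CAST.

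**Figure D2:**
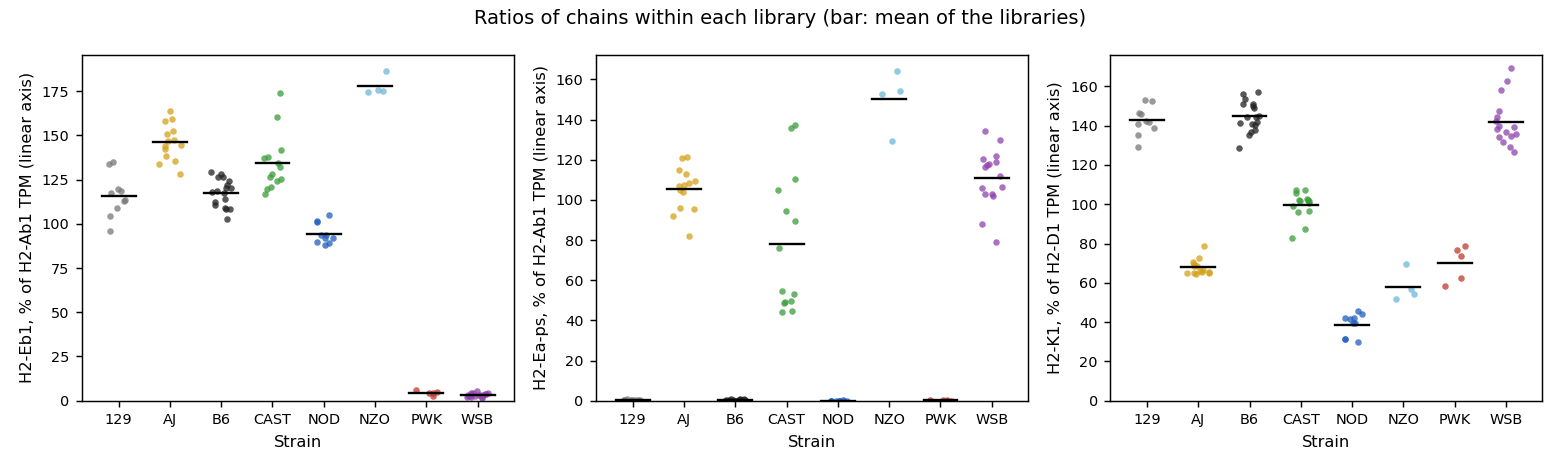
Ratios of TPM within each library by strain, on linear axes in percent, for H2-Eb1 over H2-Ab1, H2-Ea-ps over H2-Ab1 and H2-K1 over H2-D1. Points are libraries and bars are means. H2-Eb1 lies between 1.68 and 6.08% of H2-Ab1 in PWK and WSB and at 87.8% or more in every other library, H2-Ea-ps lies at 44.1% or more in AJ, CAST, NZO and WSB, and H2-K1 exceeds H2-D1 in every library of 129, B6 and WSB.

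Both chains of the A molecule and Cd74 were highest in NOD. H2-Ab1 was 53.68 to 2162 TPM with a median of 605 TPM in NOD, and 24.36 to 61.61 TPM with a median of 40.9 TPM in B6. Cd74 was 145.47 to 5490 TPM with a median of 1518 TPM in NOD, and 80.96 to 179.78 TPM with a median of 130.64 TPM in B6. The lowest NOD library lay inside the range of B6 for both genes, and the spread within NOD was the widest of all strains. Against B6 the log2 fold change in NOD was 3.77 for H2-Aa (SE 0.23, adjusted p = 1.08e-25), 3.81 for H2-Ab1 (SE 0.25, adjusted p = 2.74e-24) and 3.50 for Cd74 (SE 0.24, adjusted p = 3.98e-23). The summed leukocyte genes rose with them, from 37.7 to 3286 TPM among the NOD libraries. The leukocyte covariate was the log2 of the summed normalized counts of the leukocyte genes. With it the values were 0.42 for H2-Aa (adjusted p = 0.0540), 0.24 for H2-Ab1 (adjusted p = 0.436) and 0.04 for Cd74 (adjusted p = 0.902), and none was called.

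In NZO the libraries had 107.43, 69.29, 56.99 and 241.58 TPM of H2-Aa and 297.45, 171.65, 152.94 and 764.15 TPM of Cd74. The highest values are those of replicate 4, the only male library of NZO. H2-Aa rose by a log2 fold change of 1.20 (SE 0.30, adjusted p = 0.000836) and Cd74 by 1.3 (SE 0.31, adjusted p = 0.000439). Without replicate 4 the values were 0.48 (adjusted p = 0.338) and 0.44 (adjusted p = 0.397), and neither was called. With the leukocyte covariate they were 0.0737 (adjusted p = 0.728) and 0.0907 (adjusted p = 0.685). The summed TPM of the leukocyte genes was highest in the same replicate of NZO, at 134.06 TPM. H2-Ab1 in NZO, at 0.75 (adjusted p = 0.0661), did not pass the test.

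In the fit to all libraries, CAST was the only strain in which all 3 of H2-Aa, H2-Ab1 and H2-Eb1 passed the test as lower than in B6. The log2 fold changes were -0.63, -0.66 and -0.51 (adjusted p = 0.0114, 0.0134 and 0.0394), and the CAST libraries overlapped those of B6. Without replicate 10 of 129, the same 3 genes were also called lower in 129 (-0.67, -0.67 and -0.63). In AJ only H2-Ab1 of these fell (-0.58, adjusted p = 0.0337). Cd74 stood at 519.5% ± 26.3 (SD, n = 14) of H2-Ab1 in AJ, at 325% ± 21.4 (SD, n = 18) in B6, but at 217% ± 18 (SD, n = 5) in PWK, without overlap between these 3 strains. H2-Eb2, a further beta chain gene, was at 0.0156 to 0.748 TPM on average outside NOD and at 11.3 TPM ± 12.6 (SD, n = 10) in NOD. The value of 0.748 TPM is that of PWK, whose libraries had 0.62, 0.05, 2.79, 0 and 0.28 TPM.

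**Figure D3:**
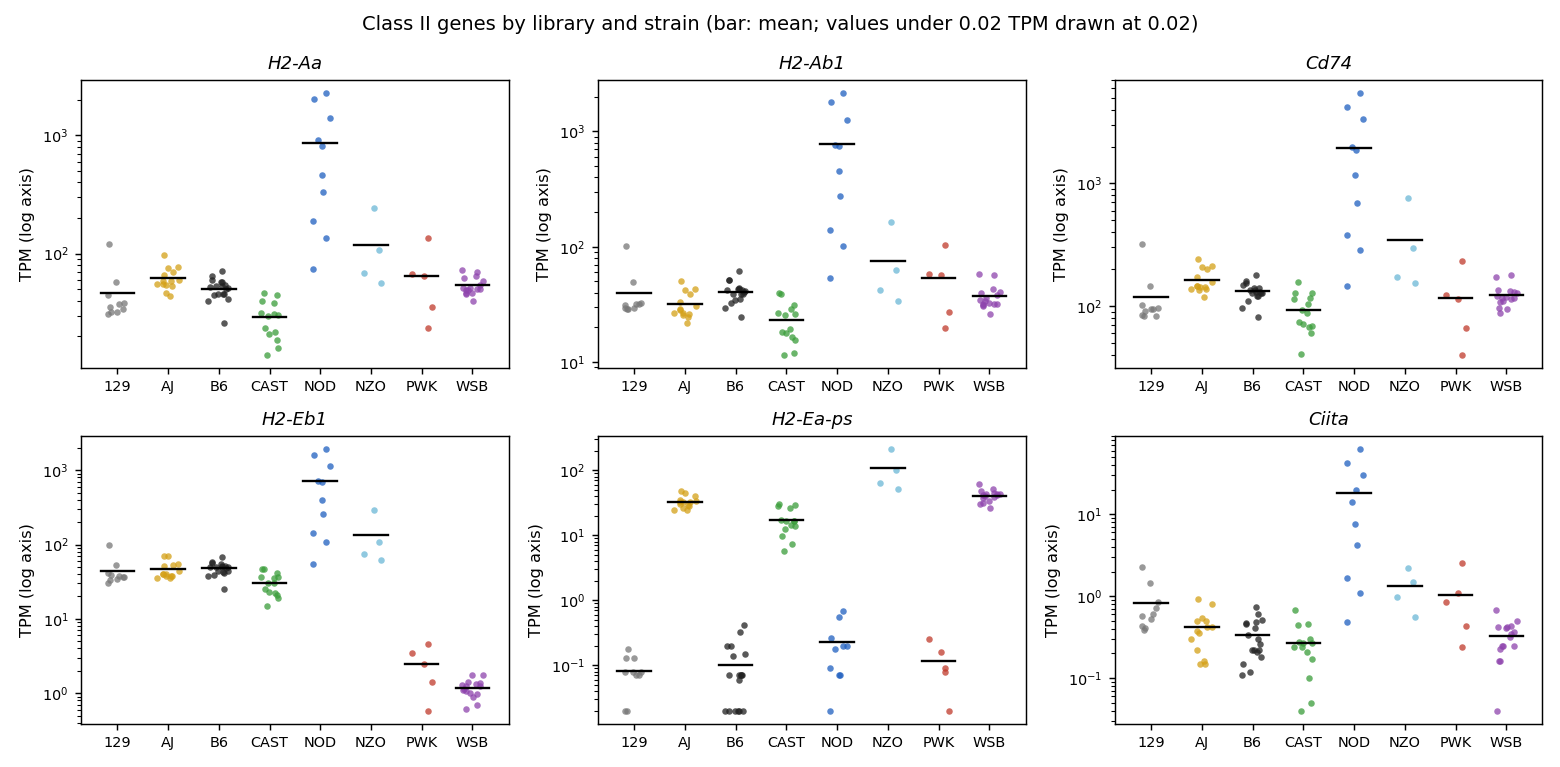
TPM of H2-Aa, H2-Ab1, Cd74, H2-Eb1, H2-Ea-ps and Ciita in each library by strain, on log axes, with bars at the means and values under 0.02 TPM drawn at 0.02. NOD libraries spread from 54.2 to 1931 TPM for H2-Eb1, whereas PWK and WSB libraries stay under 4.58 TPM, and H2-Ea-ps separates AJ, CAST, NZO and WSB from the other strains.

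The peptide exchange genes were low outside NOD. H2-DMa averaged 3.23 TPM ± 0.67 (SD, n = 18) in B6 and 58.1 TPM ± 53.1 (SD, n = 10) in NOD. H2-Oa averaged 0.248 TPM ± 0.154 in B6 and 20.6 TPM ± 23.1 in NOD, and H2-Ob 0.33 TPM ± 0.226 and 29.6 TPM ± 34.1. H2-DMb2 had the largest difference of the tested members between NOD and B6, a log2 fold change of 6.70 (SE 0.44, adjusted p = 3.90e-24), and it was also above B6 in AJ (1.37), CAST (1.77), NZO (2.38), PWK (2.48) and 129 (1.87). With the leukocyte covariate H2-Oa (0.77, adjusted p = 0.190) and H2-Ob (0.35, adjusted p = 0.599) were not called in NOD against B6, and H2-DMb2 stayed called at 1.76. Without replicate 10 of 129 the value of H2-DMb2 in 129 was 0.92 and no longer called (adjusted p = 0.0833). H2-DMb1 was called higher in NZO too (1.58), a call lost without NZO replicate 4 (0.71, adjusted p = 0.140), did not pass the test in CAST, PWK and 129, and was lower than B6 in AJ (-0.65, adjusted p = 0.0184), with the reads of the pair open to exchange as given above.

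Ciita was under 1 TPM in most libraries outside NOD. It ranged from 0.11 to 0.74 TPM with a median of 0.28 TPM in B6, and from 0.48 to 62.71 TPM with a median of 10.86 TPM in NOD. The log2 fold change of NOD against B6 was 5.36 (SE 0.39, adjusted p = 1.09e-21), and with the leukocyte covariate the call was lost (adjusted p = 0.997). Ciita also passed the test in NZO (1.84, adjusted p = 0.00168), PWK (1.31, adjusted p = 0.0184) and 129 (1.07, adjusted p = 0.0223). The call in NZO was lost without replicate 4 of NZO (1.44, adjusted p = 0.0519) and with the leukocyte covariate (0.35, adjusted p = 0.397). The call in PWK was lost without replicate 3 of PWK (0.74, adjusted p = 0.265) and that in 129 without 129 replicate 10 (0.72, adjusted p = 0.144), which are the libraries highest in leukocyte genes in their strains.

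Among the class I genes, H2-K1 and H2-D1, the classical heavy chains, were the most abundant heavy chains. H2-K1 in B6 ranged from 119.14 to 349.97 TPM with a median of 281.8 TPM. In PWK its libraries had 97.7, 108.83, 156.34, 84.03 and 129.58 TPM, and in NOD it ranged from 76.59 to 919.96 TPM with a median of 303 TPM. The PWK libraries thus reached only the lower end of B6, and NOD spread to both sides of B6. H2-K1 fell in PWK (log2 fold change -1.59, SE 0.22, adjusted p = 1.44e-09), in CAST (-0.74, adjusted p = 4.13e-06) and in WSB (-0.43, adjusted p = 0.00433). NOD against B6 was 0.18 (SE 0.15, adjusted p = 0.285), a value that did not pass the test. Without the 5 NOD libraries highest in leukocyte genes it was -0.64 (adjusted p = 0.000574) and with the leukocyte covariate -1.54 (adjusted p = 1.46e-08), both called as lower.

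H2-D1 had a different order of strains. It ranged from 84.82 to 238.14 TPM in B6 with a median of 186.29 TPM, from 321.1 to 494.03 TPM in AJ with a median of 402.8 TPM, and from 244.01 to 2009 TPM in NOD with a median of 739 TPM. All libraries of AJ and NOD lay above all those of B6. Against B6, H2-D1 rose by 2.02 in NOD (SE 0.14, adjusted p = 1.10e-23), 0.70 in AJ (SE 0.13, adjusted p = 2.18e-06) and 0.67 in NZO (SE 0.19, adjusted p = 0.00253), the last of which was lost without NZO replicate 4 (0.25, adjusted p = 0.420). It fell in WSB (-0.76), PWK (-0.63) and CAST (-0.54). Within libraries H2-K1 stood at 145% ± 7.69 (SD, n = 18) of H2-D1 in B6, 143% ± 7.38 (SD, n = 10) in 129 and 142% ± 12 (SD, n = 16) in WSB, 99.5% ± 6.96 (SD, n = 14) in CAST, and at 38.7% ± 5.75 (SD, n = 10) in NOD, 58.1% ± 7.86 (SD, n = 4) in NZO, 67.9% ± 3.96 (SD, n = 14) in AJ and 70.0% ± 9.13 (SD, n = 5) in PWK. The 3 strains with the excess of H2-K1 did not overlap with the 4 strains below CAST.

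B2m was 45.69 to 144.51 TPM with a median of 102.33 TPM in B6 and 125.09 to 3818 TPM with a median of 1119 TPM in NOD. Its NZO libraries had 287.39, 262.03, 184.19 and 884.94 TPM. All 4 NZO libraries and 9 of the 10 NOD libraries lay above the highest B6 library. The log2 fold change against B6 was 3.51 in NOD (SE 0.25, adjusted p = 5.83e-22) and 1.97 in NZO (SE 0.32, adjusted p = 2.45e-07), and the NZO value stayed between 0.93 and 2.42 and called under all settings. The NOD value was 0.42 with the leukocyte covariate and was not called (adjusted p = 0.436). The summed TPM of the 32 class I heavy chain genes was 643% ± 88.3 (SD, n = 18) of B2m in B6 and 617 to 770% on average in 129, AJ, CAST and WSB, but 459% ± 130 (SD, n = 5) in PWK, 261% ± 66.9 (SD, n = 4) in NZO and 220.3% ± 112 (SD, n = 10) in NOD. B2m thus stood higher relative to the heavy chains counted on B6 transcripts in NOD and NZO, and what part reads lost from the heavy chains have in this was not tested.

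**Figure D4:**
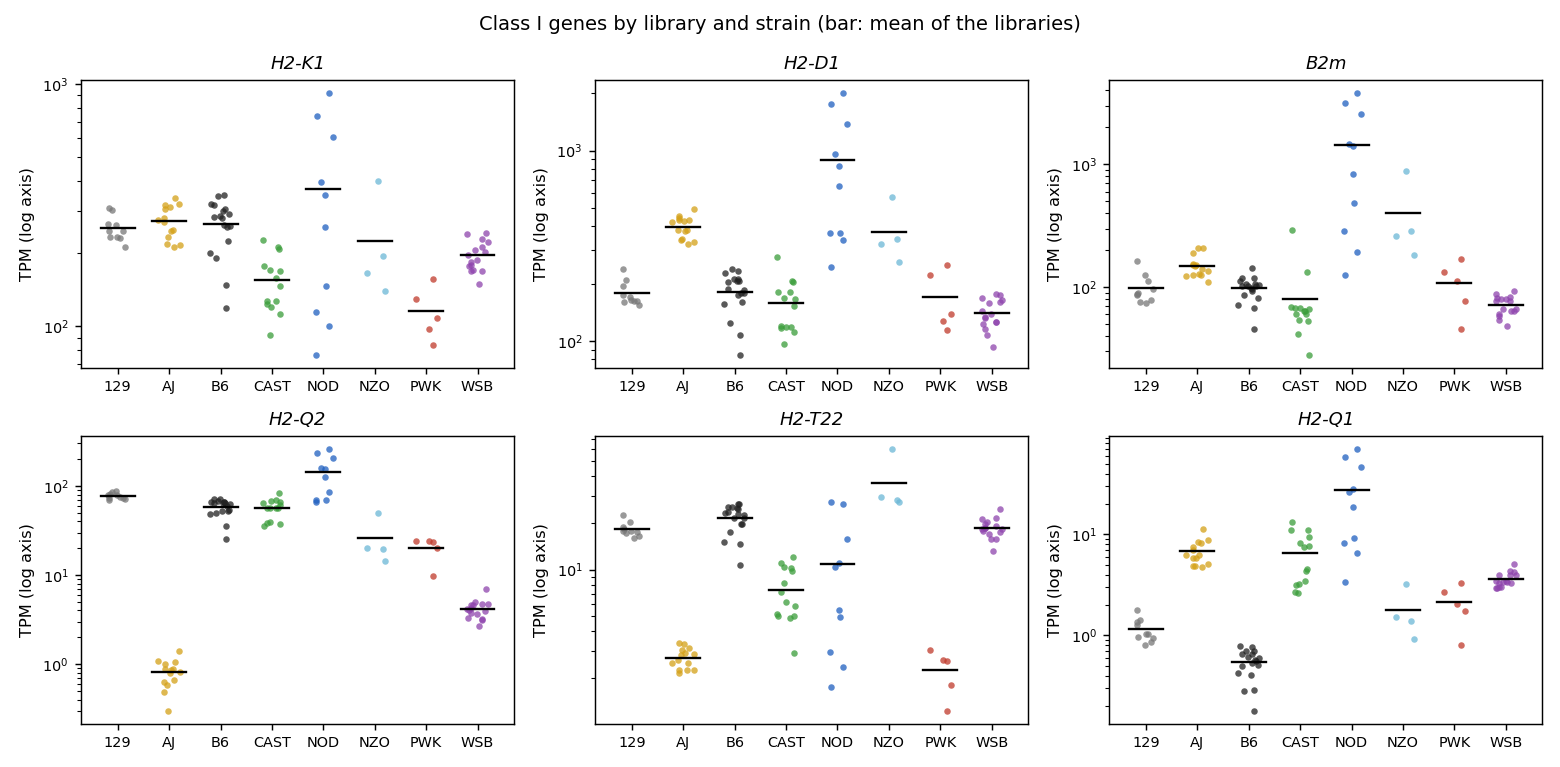
TPM of H2-K1, H2-D1, B2m, H2-Q2, H2-T22 and H2-Q1 in each library by strain, on log axes, with bars at the means. B2m is above all B6 libraries in all 4 NZO libraries, H2-Q2 is under 1.42 TPM in every AJ library and 25.58 TPM or more in every B6 library, and H2-T22 is low in AJ and PWK.

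The H2-Q genes are nonclassical class I genes next to H2-D1. H2-Q2 in B6 ranged from 25.58 to 71.97 TPM with a median of 62.9 TPM. In AJ it ranged from 0.3 to 1.41 TPM with a median of 0.845 TPM, and in WSB from 2.66 to 6.92 TPM with a median of 4.07 TPM. The PWK libraries had 23.87, 20.11, 23.58, 9.75 and 24.1 TPM. None of the libraries of AJ, WSB and PWK reached the lowest B6 library. H2-Q2 fell by a log2 fold change of -6.28 in AJ (SE 0.14, adjusted p = 1.61e-58), -3.76 in WSB (SE 0.11, adjusted p = 1.06e-49), -1.70 in PWK (SE 0.15, adjusted p = 8.66e-17) and -1.19 in NZO (SE 0.16, adjusted p = 1.91e-09). In CAST (0.03) and 129 (0.15) the difference did not pass the test, and in NOD it rose by 1.15 (adjusted p = 1.05e-17).

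H2-Q1, with which H2-Q2 shares windows, was low in B6 and higher elsewhere. It ranged from 0.18 to 0.79 TPM in B6 with a median of 0.565 TPM, from 4.8 to 11.24 TPM in AJ with a median of 6.265 TPM, and from 2.62 to 13.2 TPM in CAST with a median of 6.06 TPM. All libraries of AJ and CAST lay above all of B6, and the CAST libraries were themselves uneven in H2-Q1, H2-T22 and H2-Ea-ps, so that a CAST mean of these genes spans unlike libraries. All 7 strains passed the test as higher than B6, from 0.84 in 129 (adjusted p = 0.00213) to 4.86 in NOD (adjusted p = 1.05e-33), with 2.97 in AJ and 3.36 in CAST.

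H2-Q6 and H2-Q7, which encode the Qa-2 antigen, had means of 2.95 TPM ± 1.58 and 4.38 TPM ± 1.81 (SD) over the 18 libraries of B6, and 167 TPM ± 150.1 and 97.7 TPM ± 84.5 (SD, n = 10) in NOD. In PWK, H2-Q6 had 26.47, 21.89, 22.56, 12.51 and 22.16 TPM, all above the highest B6 library at 6.93 TPM, and rose by 1.45 (SE 0.38, adjusted p = 0.000827). The mean transcript length that the tables give for H2-Q6, which follows the isoforms given the reads, was 1002 bases in PWK and 2085 in B6, so its TPM rises more than its counts. In AJ the same holds for H2-Q7, whose mean length was 1829 bases against 2969 in B6, with a log2 fold change of 1.90 (adjusted p = 6.61e-12). H2-Q4 rose in AJ (1.26), NZO (1.19), CAST (0.38) and NOD (2.33), and H2-Q10, a secreted class I chain best known from liver, rose in AJ, CAST, NOD, NZO, PWK and WSB by 0.72 to 2.76. H2-Q5, outside the tested genes because of its biotype, averaged 7.41 TPM in B6 and 25.6 TPM in both AJ and NZO.

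H2-T22, a nonclassical chain recognised by gamma delta T cells, was 10.67 to 26.69 TPM in B6 with a median of 22.63 TPM. It was 2.15 to 3.37 TPM in AJ with a median of 2.705 TPM, and 2.63, 1.79, 2.59, 1.23 and 3.01 TPM in PWK. In NZO it was 27.96, 29.3, 27.36 and 59.94 TPM. AJ and PWK lay wholly under B6, and NZO wholly above it. In NZO the log2 fold change against B6 was 0.67 (SE 0.20, adjusted p = 0.00603). It was 0.28 and not called without replicate 4 (adjusted p = 0.416), and 0.15 and not called with the leukocyte covariate (adjusted p = 0.547). The values were -3.10 in AJ (SE 0.16, adjusted p = 1.30e-30), -3.27 in PWK (SE 0.26, adjusted p = 1.08e-19) and -1.32 in CAST (SE 0.15, adjusted p = 5.44e-13). In NOD H2-T22 fell by a log2 fold change of -1.24 against B6 (SE 0.16, adjusted p = 2.02e-10), with -2.96 to -1.12 over 24 alternatives, the lowest with the leukocyte covariate. The near copy H2-T10, listed as a pseudogene in B6, averaged 0.631 TPM ± 0.233 (SD, n = 18) in B6, 8.03 TPM ± 1.10 (SD, n = 14) in AJ and 30.1 TPM ± 28.1 (SD, n = 10) in NOD, and in AJ it rose by 3.05 (SE 0.20, adjusted p = 2.15e-24). Whether reads were exchanged between both genes was not tested.

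H2-T23, the Qa-1 chain that inhibits natural killer cells, fell in AJ (-0.99, adjusted p = 1.78e-08), PWK (-0.60), CAST (-0.49) and 129 (-0.41) and rose in NZO (0.96, adjusted p = 8.11e-05) and NOD (0.74, adjusted p = 1.79e-05). The NOD value of H2-T23 was -1.01 and called lower with the leukocyte covariate (adjusted p = 0.000513), -0.21 and not called without the 5 NOD libraries highest in leukocyte genes (adjusted p = 0.256), and 0.33 and not called without the libraries of opposite sex counts (adjusted p = 0.0608). H2-M3, which presents formylated peptides, averaged 10.4 TPM ± 2.64 (SD, n = 18) in B6. It fell in PWK (-1.27), 129 (-0.95), CAST (-0.76) and WSB (-0.47) and rose in NOD (1.04, but -0.14 and not called with the leukocyte covariate) and AJ (0.38). H2-M2 was 0.36 to 1.2 TPM in B6 with a median of 0.795 TPM and 4.16 to 148.6 TPM in NOD with a median of 36.3 TPM, so that NOD lay wholly above B6. It was 0.28, 0.11, 0.26 and 0.15 TPM in NZO, wholly under B6 (-2.10, SE 0.68, adjusted p = 0.00967).

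Some less studied class I genes had orders of their own. H2-Bl, listed as a pseudogene, averaged 0.199 TPM ± 0.108 (SD, n = 18) in B6 and was above B6 in all 7 other strains, from 2.35 in NZO (adjusted p = 1.37e-07) to 5.18 in NOD (adjusted p = 2.85e-30), with 3.85 in 129. H2-K2, also a pseudogene, averaged 7.26 TPM ± 2.71 (SD, n = 18) in B6. It rose in NOD (2.76), CAST (0.69) and AJ (0.58) and fell in NZO (-1.69) and WSB (-0.94). H2-T24 averaged 1.28 TPM ± 0.53 (SD, n = 18) in B6 and rose in NOD (1.79), NZO (1.3), WSB (0.72) and AJ (0.57). Its NOD value with the leukocyte covariate was -0.21 and not called (adjusted p = 0.701). H2-Bl thus differed even in 129, the strain of the related haplotype.

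Psmb8, an inducible proteasome subunit, averaged 9.25 TPM ± 2.09 (SD, n = 18) in B6, 20.1 TPM ± 3.4 (SD, n = 14) in AJ and 115 TPM ± 106 (SD, n = 10) in NOD. In NZO its libraries had 22.17, 23.6, 23.38 and 53.2 TPM, all above the highest B6 library at 14.17 TPM. Against B6, Psmb8 rose by 3.23 in NOD, 1.64 in NZO (SE 0.25, adjusted p = 9.60e-08) and 0.91 in AJ (SE 0.18, adjusted p = 1.66e-05) and fell by 0.73 in CAST (SE 0.19, adjusted p = 0.000823). Psmb9 moved alike in NOD (2.88), AJ (0.69), CAST (-0.72) and NZO (0.80), the last of which was lost without NZO replicate 4 (0.13, adjusted p = 0.828) and with the leukocyte covariate (-0.0851, adjusted p = 0.810). Psmb10, on chromosome 8, rose in NOD (1.49) and fell in PWK (-0.81), 129 (-0.78) and AJ (-0.52). None of the 3 was called in NOD with the leukocyte covariate, where Psmb8 was at 0.58 (adjusted p = 0.0519), Psmb9 at 0.0499 (adjusted p = 0.934) and Psmb10 at 0.32 (adjusted p = 0.624).

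Tap1 averaged 6.89 TPM ± 1.3 (SD, n = 18) in B6 and 67.7 TPM ± 63.5 (SD, n = 10) in NOD. Tap2 rose in NOD (1.55), NZO (0.85), AJ (0.51) and WSB (0.50), and Tapbp in NOD (0.81), AJ (0.42) and NZO (0.40, lost without replicate 4 of NZO) while it fell in CAST (-0.27). In NOD with the leukocyte covariate Tap1 was at 0.42 (adjusted p = 0.252), Tap2 at 0.28 (adjusted p = 0.336) and Tapbp at -0.0259 (adjusted p = 0.933), none of them called. Nlrc5 was 0.19 to 1.45 TPM in B6 with a median of 0.645 TPM, 2.03, 2.8, 2.96 and 10.14 TPM in NZO, and 0.04 to 0.58 TPM in WSB with a median of 0.23 TPM. NZO lay wholly above B6 and WSB overlapped it from below. Nlrc5 rose in NZO by 2.64 (SE 0.46, adjusted p = 1.61e-06) and fell in WSB (-1.60, SE 0.40, adjusted p = 0.000462), and in NOD it rose by 5.18 (SE 0.39, adjusted p = 3.67e-21). With the leukocyte covariate the NOD value was 0.81 and was not called (adjusted p = 0.246).

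Sequences upstream of 4 class I and class II members are shown, of which H2-K1 did not pass the test in NOD against B6. The sequences were not tested for a relation to the strain differences. They run from 200 to 21 bases before the RefSeq start (GRCm38.p6), at chr17:34000368-34000547 on the minus strand for H2-K1, chr2:122147487-122147666 on the plus strand for B2m, chr17:34287844-34288023 on the minus strand for H2-Aa and chr17:34305667-34305846 on the plus strand for H2-Eb1. Capitals mark the motifs searched, which were the kappa B motif GGGATTCCC, the core of the interferon-stimulated response element GAAANNGAA, the Y box CTGATTGG and the core of the X box TAGCAAC, each on both strands and without overlap between them in these stretches.
H2-K1: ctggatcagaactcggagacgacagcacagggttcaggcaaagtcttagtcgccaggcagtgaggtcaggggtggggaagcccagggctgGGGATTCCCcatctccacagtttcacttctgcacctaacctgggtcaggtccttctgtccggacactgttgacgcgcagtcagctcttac
B2m: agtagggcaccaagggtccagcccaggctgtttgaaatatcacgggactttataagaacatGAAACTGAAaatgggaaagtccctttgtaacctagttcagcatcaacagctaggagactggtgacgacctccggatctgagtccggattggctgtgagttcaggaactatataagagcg
H2-Aa: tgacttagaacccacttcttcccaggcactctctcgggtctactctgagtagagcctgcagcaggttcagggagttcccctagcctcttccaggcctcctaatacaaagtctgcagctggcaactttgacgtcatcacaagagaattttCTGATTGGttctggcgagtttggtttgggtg
H2-Eb1: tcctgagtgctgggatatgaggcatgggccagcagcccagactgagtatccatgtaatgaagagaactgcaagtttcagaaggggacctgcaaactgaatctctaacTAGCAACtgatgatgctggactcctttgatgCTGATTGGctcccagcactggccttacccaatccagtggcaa

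RefSeq windows of 300 bases, from 250 before to 50 after the start, were matched for 37 of the 55 members. The Y box was found in 19 of them (51.4%) and in 4.10% of all 32851 windows. Among the 19 were H2-M1, H2-M9, H2-M10.1, H2-M10.3, H2-M10.4, H2-M10.5, H2-M10.6 and H2-M11, which stayed under a mean of 1 TPM in every strain. The others were H2-Aa, H2-D1, H2-Eb1, H2-Eb2, H2-K1, H2-Oa, H2-Q6, H2-Q7, H2-T23, Psmb9 and Tap1. The kappa B motif was found in 4 (H2-K1, H2-D1, H2-Q6 and H2-Q7) and in 0.353% of all windows, the X box core in 3 (H2-Eb1, H2-Eb2 and H2-Ob) and in 3.66%, and the interferon response core in 3 (B2m, H2-T22 and H2-T23) and in 8.56%. These are letters of the B6 genome and describe the sequence, not binding in any strain.

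The strain effect passed the test in all 32 tested members, and also in 97.4% of all genes tested, so that differing between strains does not set these genes apart. In NOD against the mean of the other 7 strains, 30 of the 32 members passed the test and all 30 were higher, where 35.8% of all genes were called higher and 29.5% lower. Their median log2 fold change was 2.97, against 0.026 over all genes. The highest were H2-M2 (6.21), H2-DMb2 (5.17), Nlrc5 (5.03), H2-Oa (4.90) and H2-Eb1 (4.88), and the lowest of those called were Tapbp (0.75) and H2-K1 (0.71). The mean behind the H2-Eb1 value includes PWK and WSB, in which H2-Eb1 was low. Against B6 alone its value in NOD lay between 0.222 and 3.67 over the settings. H2-T22 (-0.14, adjusted p = 0.363) and H2-Ke6 (0.10, adjusted p = 0.0800) did not pass the test. Of the 7 further members, 6 were higher in NOD and H2-Ea-ps was lower (-3.88, adjusted p = 3.47e-15), since 4 of the other strains had it. Against B6 alone, 29 members were higher and 1 (H2-T22) lower in NOD, where 34.8% of all genes were called higher and 29.9% lower. That split was 10 and 3 with the leukocyte covariate, where H2-K1 (-1.54) and H2-T23 (-1.01) were also lower.

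The NOD libraries were far from alike. The summed TPM of 16 leukocyte genes (among them Ptprc, Cd3e, Cd4, Ms4a1, Itgax and Csf1r) was 37.7 to 3286 in NOD and 14.5 to 42.1 in B6, with no gene of the list at 0 in all libraries of a strain. The summed TPM of 18 interferon response genes was 107 to 1958 in NOD and 46.1 to 165 in B6. In the NOD library with the lowest leukocyte sum, replicate 4 at 37.67 TPM, 20 of the 32 members had more normalized counts than any B6 library. Another 3 had fewer than any. In the library with the highest, replicate 7 at 3286 TPM, 30 had more and 1 had fewer. How many of all genes lay outside the B6 range in single libraries was not counted.

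Without the 5 NOD libraries highest in leukocyte genes, an alternative chosen after seeing the data, 27 members were higher and 1 lower than in the other strains. There, B2m remained 2.10 and H2-M2 4.95 higher on the log2 scale, H2-T22 was 1.07 lower, and H2-K1 was at -0.11 and no longer called. Under the leukocyte covariate 14 members were higher and 3 lower, and H2-K1 was at -0.87. NOD mice develop lymphocytic inflammation of the islets, and B cells and myeloid cells carry class II molecules. How much of the difference came from leukocytes and how much from islet cells cannot be told apart in whole islets.

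NZO had the next highest count of members called. Of the 32 members 25 were higher and 3 lower than in B6, where 21.6% of all genes were called higher and 15.6% lower, with a median log2 fold change of 1.25. The highest were H2-Ob (2.92), Nlrc5 (2.64), H2-DMb2 (2.38), H2-Q10 (2.36) and H2-Oa (2.20), and those lower were H2-M2 (-2.10), H2-Q2 (-1.19) and H2-Ke6 (-0.32). H2-K1, H2-M3, Psmb10 and H2-Ab1 did not pass the test. Leukocyte sums were 70.94, 44.59, 41.19 and 134.06 TPM and interferon response sums 158.16, 145.49, 125.48 and 433.52 TPM, both highest in replicate 4. In normalized counts 22, 18, 13 and 28 of the members lay above every B6 library in these libraries and 4, 3, 5 and 2 lay below. The share of all genes outside the B6 range was not counted. Without replicate 4, 13 members were higher and 4 lower, with H2-K1 then among the lower (-0.91, adjusted p = 0.00227). B2m, Nlrc5, Psmb8, Tap2, H2-Q1, H2-Q6, H2-Q7 and H2-T23 were among those that stayed higher. H2-Oa was among those no longer called without replicate 4 (1.68, adjusted p = 0.0537), as were H2-Eb1 (0.58, adjusted p = 0.205) and Tap1 (0.44, adjusted p = 0.276). The split with the leukocyte covariate was 14 higher and 6 lower.

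AJ, CAST, NZO, PWK and WSB, whose haplotypes differ from the reference, were compared with 129 and B6. Of the 32 members 13 were higher and 6 lower, where 22.2% of all genes were called higher and 27.9% lower, and the median log2 fold change was 0.22. Lower were H2-Q2 (-2.65), H2-Eb1 (-1.65), H2-M2 (-1.26), H2-T22 (-1.22), H2-K1 (-0.50) and H2-Ke6 (-0.13). Higher by the widest margins were H2-Q1 (1.88), H2-Q10 (1.28), H2-Q6 (1.03) and H2-Q7 (1.02). On log2(TPM + 1) with limma the split was 8 higher and 6 lower. Without NZO replicate 4 it was 9 and 6, with B2m, H2-Aa, H2-DMa and Psmb8 no longer called. It was 9 higher and 13 lower with the leukocyte covariate. Read loss can lower a gene and can move its reads to a related gene, and neither was tested.

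**Figure D5:**
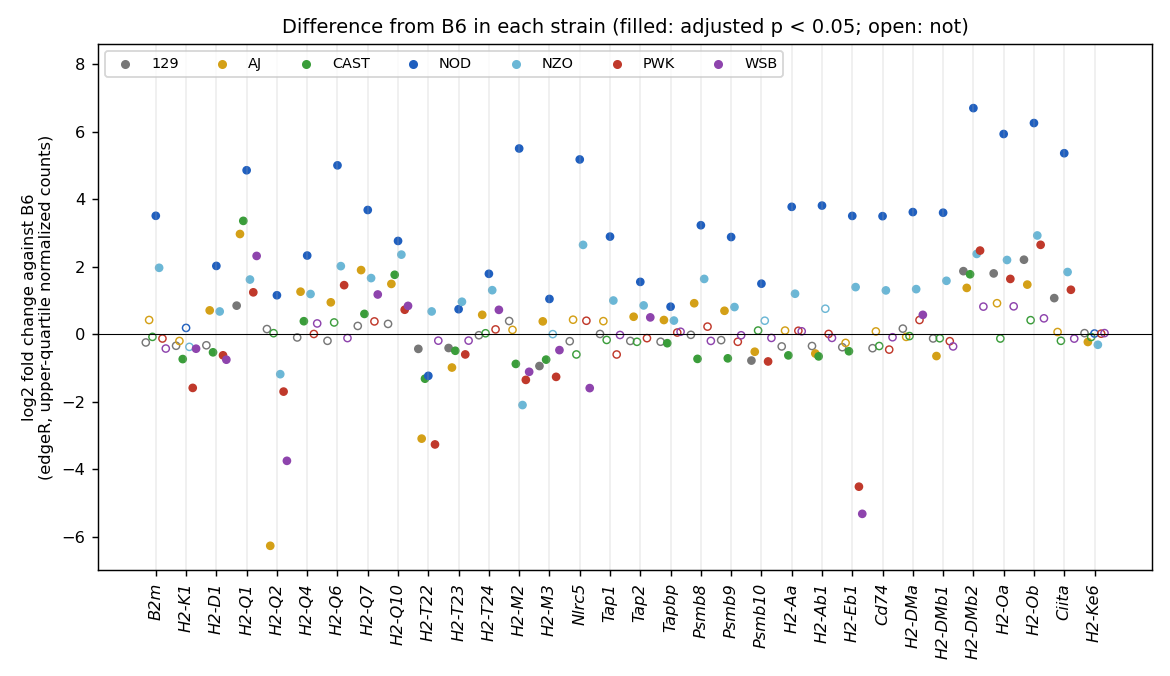
Log2 fold change against B6 of each of the 32 tested members in each of the other strains, from edgeR on upper-quartile normalized counts. Filled points passed an adjusted p of 0.05 and open points did not. NOD is the highest point for most members, H2-Q2 reaches -6.28 in AJ, and H2-Eb1 reaches -4.52 in PWK and -5.33 in WSB.

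The single strains were then compared with B6, and these comparisons share the B6 libraries. In 129, whose haplotype is closest to B6, 5 members were higher and 4 lower, where 23.8% of all genes were called higher and 16.8% lower. Lower were H2-M3 (-0.95), Psmb10 (-0.78), H2-T22 (-0.44) and H2-T23 (-0.41), and higher were H2-Ob (2.20), H2-DMb2 (1.87), H2-Oa (1.80), Ciita (1.07) and H2-Q1 (0.84). This count depended on 1 library and on the scaling. In replicate 10 of 129, 20 members lay above every B6 library and 1 below, a count not made over all genes. Replicate 10 had a leukocyte sum of 161.75 TPM, where the others had 13.5 to 52.7 TPM. Without it, 3 members were higher and 12 lower, among the latter Cd74 (-0.75), H2-Aa (-0.67), H2-Ab1 (-0.67) and H2-Eb1 (-0.63), and H2-DMb2 and Ciita were no longer called. With TMM normalization 5 were higher and 7 lower, with log2(TPM + 1) 3 and 1, and without the libraries of opposite sex counts 7 and 1. In the last of these H2-T23 (-0.30, adjusted p = 0.306), H2-T22 (-0.34, adjusted p = 0.215) and Psmb10 (-0.71, adjusted p = 0.140) were no longer called.

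In AJ, 14 members were higher and 7 lower than in B6, where 21.5% of all genes were called higher and 24% lower, and on log2(TPM + 1) the split was 15 and 3. The members that rose included D1, Q1, Q4, Q6, Q7 and Q10 of the class I chains and Psmb8, Psmb9, Tap2 and Tapbp of the machinery, and those that fell included H2-Q2, H2-T22, H2-T23 and H2-Ab1. In CAST 5 were higher and 12 lower, where 23.7% were called higher and 25.1% lower, and with the libraries of each sample summed 2 were higher and 2 lower. There H2-K1, H2-D1, H2-M2, H2-M3, H2-T22, H2-T23, Psmb8, Psmb9, Tapbp and the class II chains fell and H2-Q1, H2-Q4, H2-Q7, H2-Q10 and H2-DMb2 rose.

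In PWK 7 were higher and 9 lower, where 26.4% were called higher and 23.1% lower. The members lower than B6 in PWK were H2-Eb1, H2-T22, H2-Q2, H2-K1, H2-M2, H2-M3, Psmb10, H2-D1 and H2-T23. Those higher were H2-Ob (2.65), H2-DMb2 (2.48), H2-Oa (1.64), H2-Q6, Ciita, H2-Q1 and H2-Q10, of which H2-Oa, H2-Ob, Ciita and H2-Q10 were lost without replicate 3, whose leukocyte sum of 111.42 TPM was the highest of PWK. H2-M2 was no longer called without any 1 of replicates 1, 2, 4 and 5 (-1.39 to -1.16), Psmb10 without replicate 2, 3 or 5 (-0.81 to -0.77), and H2-Q10 also without replicate 4 or 5. In WSB 6 were higher and 7 lower, where 24.8% were called higher and 25% lower, and on log2(TPM + 1) the split was 4 and 3. Lower in WSB were H2-Eb1, H2-Q2, Nlrc5, H2-M2, H2-D1, H2-M3 and H2-K1, and higher were H2-Q1, H2-Q7, H2-Q10, H2-T24, H2-DMa and Tap2. When a term for the range of library numbers was added within AJ, B6, CAST and WSB, 24 members were called in AJ, 19 in CAST and 18 in WSB.

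Males and females did not differ at the threshold in any of the 32 members by edgeR, where 4.01% of all genes were called. At an unadjusted p under 0.05 there was 1 member, Nlrc5 (0.47 higher in males), and limma-voom called 2 members. The sex labels of 12 libraries are in doubt as stated, and without them the count was also 0.

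Of 29 further antigen presentation genes tested, among them the chaperones Calr and Canx, the proteases Ctss and Lgmn, the class II transcription factor subunits and the class I-like chains that pair with B2m, 22 were higher and 1 lower in NOD than in the other strains, beside 35.8% and 29.5% of all genes. Among the largest differences were those of March1 (3.97), a ligase that removes class II molecules from the surface and Ctss (3.05), which trims Cd74. In NZO 13 were higher and 3 lower than in B6 (21.6% and 15.6% of all genes), led by Fcgrt (1.61), the neonatal Fc receptor. Fcgrt also rose in WSB (0.93), AJ (0.85) and 129 (0.53). In CAST 2 were higher and 14 lower (23.7% and 25.1% of all genes), led by Mr1 (-1.37), which presents vitamin B metabolites, and Erap1 (-0.83), which trims class I peptides. The split was 13 higher and 4 lower in AJ (21.5% and 24% of all genes), 11 and 4 in WSB (24.8% and 25%), 5 and 5 in PWK (26.4% and 23.1%), and 5 and 8 in 129 (23.8% and 16.8%), and the count in PWK lies under the share of all genes in both directions. Between the sexes 1 of the 29 differed, Nfyb at 0.15 (adjusted p = 0.00184).

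The remaining 16 members did not reach a mean of 1 TPM in any strain, and 5 of them were at 0 in all 91 libraries. They were most of the H2-M genes, such as the H2-M10 group known from the vomeronasal organ, with H2-Pa, H2-Pb, H2-Q3 and H2-T9. The highest mean among them was 0.292 TPM, for H2-Q3 in NZO. H2-T3, the thymus leukaemia antigen of the intestine, reached a mean of at least 1 TPM only in NOD, at 1.18 TPM ± 1.62 (SD, n = 10). Replicate 7 of NOD had 5.38 TPM of it and the other NOD libraries 0 to 2.18 TPM.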

How the data were processed

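The authors quantified the reads of 91 islet RNA-seq libraries with RSEM on GENCODE vM18 transcripts (mm10) and the authors deposited 1 table per library. Its deposited expected counts are estimated numbers of reads per gene without scaling for depth, and the TPM column that the authors deposited beside them is scaled for transcript length and to 1 total. The RSEM version, the aligner settings and the handling of multimapping reads are not given in the sources used here. RSEM splits a read that fits several genes between them, and strain sequence was not part of the reference.

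Members were found by name among 54146 genes, of which 54079 were matched to GENCODE M21 for biotype and place. Filters rebuilt from the methods of the study (protein-coding, chromosomes 1 to 19 and X, lowest 10% of variance removed, non-zero in at least 85% of libraries) left 15204 genes. Expected counts were rounded and tested by edgeR 4.0.16 (quasi-likelihood, upper-quartile normalization, R 4.3.3) with terms for strain and sex fitted to all 91 libraries together, and p-values were adjusted by Benjamini and Hochberg over all genes, with a threshold of 0.05. Called means past this threshold. Members outside the filter were fitted with edgeR's filterByExpr over all biotypes. Normalized counts are counts over the effective library size. The test was tried on simulated data. Shared 100-base windows were counted in GENCODE M21 transcripts. Alternatives used limma 3.58.1, DESeq2 1.42.0 and the settings of the closing section. Intervals of counts cover counting error only.

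Values are given for every member that reached a mean of 1 TPM in a strain and for the named presentation and class II genes, and the rest are given by count and range. The members, gene lists and comparisons were chosen with earlier results of these data known. Fold changes and tests that use leukocyte genes as a covariate rest on the 16 genes of the marker list. The covariate was the log2 of their summed normalized counts, whereas leukocyte sums are given in TPM. Single values of some genes of the marker and presentation lists are not reported here.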

Additional observations from a re-analysis of the deposited data

Results flagged for a closer look

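Within the groups of 4, 5 or 10 libraries, 32 of 156 had a library at the edge whose gap to the others was above Dixon's 95% critical value. The rate of about 1 in 20 behind that value is for independent groups of normally distributed values. These groups are genes of the same libraries in TPM, so that rate is no yardstick for the 32. Replicate 10 of 129 was the highest of its strain for 12 genes, all but 3 of them class II genes, Cd74 or genes of peptide exchange. They were Cd74 at 319.67 TPM, H2-Aa at 120.63, H2-Ab1 at 102.35, H2-Eb1 at 98.09, H2-Eb2 at 1.72, H2-DMa at 10.47, H2-DMb2 at 12.46, H2-Oa at 4.27, H2-Ob at 8.13, H2-M2 at 4.71, H2-Q6 at 13.39 and H2-Q7 at 21.69 TPM. Its leukocyte sum was 161.75 TPM.

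Replicate 4 of NZO, the only male of that strain, was the highest for 9 genes of the class I side. They were B2m at 884.94 TPM, H2-Q2 at 49.54, H2-Q6 at 25.22, H2-T22 at 59.94, H2-T23 at 92.41, Nlrc5 at 10.14, Psmb8 at 53.2, Psmb9 at 23.79 and Tap1 at 25.29 TPM.

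In PWK, replicate 3 was the highest for H2-DMb2 at 10.88 TPM, H2-Eb2 at 2.79, H2-M2 at 0.84, H2-Oa at 3.73 and H2-Ob at 6.9 TPM. Replicate 4 was the lowest for H2-Q2 at 9.75 TPM, H2-Q7 at 8.53, H2-T23 at 13.01 and Tap2 at 10.22 TPM. H2-T3 stood apart at 5.38 TPM in replicate 7 of NOD and at 0.09 TPM in replicate 1 of NZO. Which property of these libraries lies behind the values was not tested.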

How the results depend on the processing

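Of 7732 values of named members under alternative settings, 7344 kept their side of the threshold with no called value changing sign, 237 lost the call, 135 gained one and 16 that were called changed sign. Counting values that were not called as well, 306 changed sign, of which 279 were called in neither fit and 11 only in the alternative. The number of members with a strain effect was 31 or 32 throughout. When calls also needed an absolute log2 fold change of 1 or more, the counts were 8 for the 5 strains against 129 and B6, 4 for 129, 8 for AJ, 4 for CAST and 6 for WSB. With the leukocyte covariate they were 17 for NOD against the other strains, 13 for NOD against B6, 14 for 129 and 22 for WSB. Members lower and higher than B6 then numbered 17 and 4 in PWK, where 9 and 7 were reported. In WSB they numbered 14 and 8, where 7 and 6 were reported, and in 129 they numbered 9 and 5, where 4 and 5 were reported. With the libraries of each sample summed the counts of members called were 1 for 129, 8 for AJ, 4 for CAST and 6 for WSB, a setting with fewer units. With limma on log2(TPM + 1) they were 4 for 129, 18 for NZO and 7 for WSB, and with limma-voom 5 for 129, 10 for PWK and 2 for sex. The cause of these changes was not tested. For counts of members under alternative settings, here and above, the share of all genes called is not given. Without single libraries (each of NZO and PWK in turn, and 129 replicate 10, the latter chosen after seeing the data) the counts ran from 9 to 15 in 129, from 17 to 29 in NZO, from 13 to 17 in PWK, from 13 to 14 in WSB and from 15 to 22 for the 5 strains, and stayed at 30 for NOD, 21 for AJ, 17 for CAST and 0 for sex.

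With the leukocyte covariate these log2 fold changes reversed, in NOD against the other strains to -0.87 for H2-K1, -0.63 for H2-T23, -0.47 for H2-Ob, -0.46 for H2-T24, -0.12 for Ciita and -0.0268 for Tapbp, in NOD against B6 to -1.01 for H2-T23, -0.21 for H2-T24, -0.14 for H2-M3 and -0.0259 for Tapbp, in NZO to -0.0851 for Psmb9, and for the 5 strains to -0.13 for H2-Aa, -0.0628 for H2-DMa and -0.0103 for B2m. Without the 5 NOD libraries highest in leukocyte genes, chosen after seeing the data, H2-K1 in NOD against the other strains (-0.11) and H2-T23 in NOD against B6 (-0.21) reversed. Values not called as reported that were called with the opposite sign included H2-K1 in NOD against B6 (-0.64 without those libraries, -1.54 with the covariate) and, with the covariate, H2-Ab1 in NZO (-0.46) and H2-Aa (-0.70) and H2-Ab1 (-0.80) in PWK. On log2(TPM + 1) the share of all called genes that were higher than in B6 was 92.5% in 129 (58.7% with the counts), 82.4% in AJ (47.3%), 80.3% in NZO (58%), 79.5% in PWK (53.3%), 67.4% in NOD (53.8%) and 33.7% in CAST (48.5%), and 23.4% for males against females (51.4%). No call of a named member reversed under TMM, median-ratio or either TPM scaling. No paired analysis was possible because the libraries carry no replicate number that the strains share. Depth limits H2-Ea-ps in 129, B6, NOD and PWK, where 7 to 30 reads in all lie behind the levels.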

Other observations

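The 14 CAST libraries spread widely in the ratio of H2-Ea-ps to H2-Ab1, from 44.1 to 137%. In replicates 14, 4, 8, 3, 11, 2 and 12 the ratio was 44.1, 44.9, 48.8, 49.1, 49.6, 53.3 and 54.4%. In replicates 10, 13, 9, 6, 5, 1 and 7 it was 76.02, 89.5, 94.4, 105, 110.3, 136 and 137%. In the former H2-Q1 made up 0.611 to 0.883% of the class I TPM and H2-T22 1.55 to 2.83%, and in the latter H2-Q1 made up 1.42 to 2.51% and H2-T22 0.659 to 1.53%. The libraries are listed in the order of the ratio and were not tested against each other, since the order comes from the values themselves. Both sexes and both ranges of library numbers occur on each side. The genotype of these mice at the H2 region was not analysed here, and CAST values of H2-Ea-ps, H2-Q1 and H2-T22 are means over libraries that differ in this way. Replicate 10 of CAST also had 293.52 TPM of B2m, where the other CAST libraries had 28.33 to 132.54 TPM.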
